A study of Mus musculus with 9 samples.

Results

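Peritoneal dendritic cells of type 1 (PcDC1) were compared with those of type 2 (PcDC2) sorted from the same cavity. PcDC1 was 1 library and PcDC2 was 2 libraries, 3 of the 9 libraries of the series, and the compared genes were the 5914 of 24532 in the table that reached 10 rescaled FPKM in PcDC1 or in the mean of PcDC2. FPKM counts fragments per kilobase of transcript, relative to the size of the library, so it is a level per length, and each library was rescaled by its median ratio to all 9. The cells came from C57BL/6 mice of 8 weeks, with no genetic change or treatment in the labels, and were washed out of the peritoneal cavity. Both dendritic cells were sorted as MHCII+ CD11c+ cells without CD115, the receptor encoded by Csf1r, and the labels do not give the marker that separated one from the other. The other 3 groups, with 2 libraries each, were the P-IV.I and P-IV.II subsets of MHCII+ CD11c+ CD115+ cells and small peritoneal macrophages (SPM), which were CD115+ without CD11c. Nothing in the labels says whether the PcDC2 libraries came from separate animals, so their spread may be technical. With 1 PcDC1 library no test was made, and every value below describes these libraries.

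Conventional dendritic cells take up antigen in tissues and present it to T cells, and they fall into a pair of lineages. Type 1 cells depend on the transcription factors IRF8, BATF3 and ID2, carry the chemokine receptor XCR1 and the dead-cell receptor CLEC9A, and are known for presenting antigen from dead cells on MHC class I to CD8 T cells. Type 2 cells depend more on IRF4 and ZEB2, carry SIRPA and CD11b, and are known for presentation on MHC class II to CD4 T cells. Both share the growth factor receptor FLT3 and the transcription factor ZBTB46.

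A gene is called higher or lower here when PcDC1 lay beyond both PcDC2 libraries, at least 4-fold from the nearer one and at least 3 times as far as they lay from each other, on the scale of log2(rescaled FPKM + 1). By this rule 684 genes (11.6%) were higher and 428 (7.24%) lower in PcDC1, and the median log2 difference of all 5914 was 0.18. On the deposited scale, without rescaling, that median was -0.17 and the split was 473 higher and 557 lower. After quantile normalization it was 420 and 427, so the balance of higher over lower depended on the scale. A gene at 10 FPKM on 1 side alone could be called in 1 direction only. The level cut thus sets part of the splits given below. The PcDC2 libraries differed from each other by 4-fold or more in 0.517% of 5029 genes, with a median absolute log2 difference of 0.20. Their correlation over the 5914 genes was 0.962, and that of PcDC1 with each of them was 0.552 and 0.560. PcDC1 correlated at 0.645 and 0.580 with P-IV.II, 0.603 and 0.471 with P-IV.I, and 0.589 and 0.416 with SPM. Its values with PcDC2 thus lay inside the range of the other groups, and do not measure a distance between dendritic cell types.

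PcDC1 stood apart from the other libraries in genes above 0, FPKM total and lowest values, which touch every count. It had 11621 genes above 0, against 13229 to 13833 in the other 8 libraries, and the largest FPKM total, 647385. The tenth percentile of its values above 0 was 0.233 FPKM, against 0.0680 to 0.162 in the others. The difference from PcDC2 followed transcript length, with a Spearman correlation of -0.59 across the 5876 genes with a known length. Among the 65 genes of up to 500 bases the median log2 difference was 2.54 and 63.1% were higher, and among the 799 genes of 4000 to 6000 bases it was -0.91 and 14.4% were lower. A correlation of -0.58 between length and the difference was also found between the SPM libraries, which share their label. It was -0.45 between the P-IV.I, -0.35 between the P-IV.II and 0.10 between the PcDC2 libraries. Set against the mean of the other 8, the length correlation was -0.56 for PcDC1, 0.40 and 0.27 for PcDC2, and 0.60 for P-IV.I replicate 2. PcDC1 was thus not the only library with such a relation. Length's part in the results was not tested. A second set of calls was therefore made after subtracting a running median over the 150 genes on either side in order of length, an alternative chosen after these data were seen.

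After that subtraction 307 genes (5.22% of 5876) were higher and 286 (4.87%) lower. By both rules 183 genes (3.11%) were higher and 232 (3.95%) lower. The median transcript length of genes higher by the first rule was 1022 bases, against 3363 for lower genes and 2373 for all. For genes called by both rules it was 2455 and 2724. Unless stated otherwise, each gene named as higher or lower below was called by both rules.

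**Figure D1:**
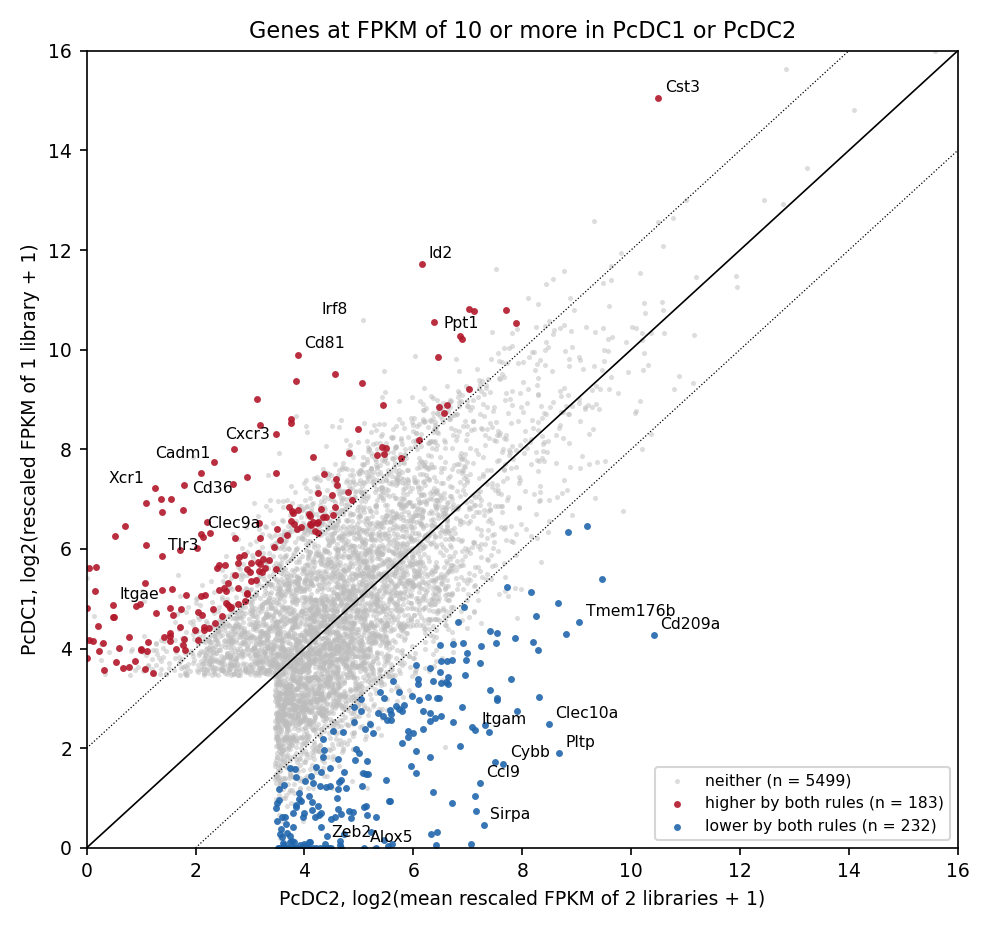
Each point is 1 of 5914 genes, with log2(mean rescaled FPKM + 1) of the 2 PcDC2 libraries on the x axis and log2(rescaled FPKM + 1) of the PcDC1 library on the y axis. The solid line marks equal levels and the dotted lines 4-fold; the 183 red genes were higher and the 232 blue genes lower in PcDC1 by both rules.

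The markers of the 2 lineages, Xcr1, Clec9a and Irf8 for type 1 and Sirpa for type 2, fell on the sides their labels name. Cd81 and Pltp were given with the comparison and were not used to name either lineage. Xcr1 (mm10 chromosome 9, 123852315 to 123862029), the receptor for the chemokine XCL1, was at 149 FPKM in PcDC1 against 2.32 and 0.419 in PcDC2. Clec9a (chromosome 6, 129408862 to 129424764), which binds actin exposed by dead cells, was at 78 FPKM in PcDC1 against 3.16 and 3.36 in PcDC2. Cd81 (chromosome 7, 143052750 to 143067930), a tetraspanin, was at 956 FPKM in PcDC1 against 15.3 and 12.2 in PcDC2. For each of these 3 genes PcDC1 was far above both PcDC2 libraries, with log2 differences of 6.11, 4.21 and 6.03. With a smaller pseudocount the PcDC2 values of Xcr1 lay too far apart for its call. Irf8 (chromosome 8, 120736358 to 120756694), the lineage factor of type 1 cells, was at 1549 FPKM in PcDC1 against 50.2 and 15 in PcDC2. Its log2 difference was 5.76, but the PcDC2 libraries were themselves 1.68 apart, so the condition on their spread was not met and Irf8 was called only after length was removed.

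On the other side, Sirpa (chromosome 2, 129591042 to 129632228), an inhibitory receptor for CD47, was at 0.374 FPKM in PcDC1 against 164 and 149.7 in PcDC2. Pltp (chromosome 2, 164839518 to 164857708), the phospholipid transfer protein that moves lipid between lipoproteins, was at 2.74 FPKM in PcDC1 against 402 and 418 in PcDC2. The PcDC2 libraries were close to each other for both genes, with means of 157 ± 9.98 and 410.2 ± 11.3 (SD, n = 2), and PcDC1 was lower by log2 -6.84 and -6.78. In a bulk library, a lower level in every cell and fewer cells with the transcript cannot be told apart. The label PcDC1 came from the sample title, and this library had high Xcr1, Clec9a and Irf8 and near-absent Sirpa.

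The list of type 1 dendritic cell genes had 31 of its 36 genes at the level cut, and 22 were higher, 0 lower and 9 neither, with a median log2 difference of 3.80 against 0.18 for all genes. After length was removed 24 were higher and 0 lower, with a median of 3.64. Members such as Xcr1, Clec9a and Cadm1 passed the level cut through PcDC1 alone and could not have been called lower. The cut therefore sets part of this split and of its median. Id2, an inhibitor of E proteins required by these cells, was at 3356 FPKM in PcDC1 against 58.7 and 82.8 in PcDC2. Cadm1, an adhesion molecule that binds CRTAM on T cells, was at 213 FPKM in PcDC1 against 3.59 and 4.46 in PcDC2. These are 47.4 and 52.8 times the PcDC2 means. Itgae, the CD103 integrin chain that binds E-cadherin, was at 28.4 FPKM in PcDC1 against 0.397 and 0.412 in PcDC2, and Cd8a was at 12.3 FPKM in PcDC1 against 0.601 and 0.288 in PcDC2. Cd24a, a glycosylated surface protein of type 1 cells, was at 643 FPKM in PcDC1 against 34.6 and 30.2 in PcDC2. The level in PcDC1 of these 3 genes ran from 12.3 to 643 FPKM, and no PcDC2 library came within 10-fold of PcDC1.

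Gcsam, known as a signalling adaptor of germinal centre B cells, was at 127 FPKM in PcDC1 against 2.31 and 0.83 in PcDC2. Hepacam2 was at 229 FPKM in PcDC1 against 14.2 and 19.3 in PcDC2, Gpr33 at 14.5 FPKM in PcDC1 against 0.169 and 0.174 in PcDC2 and Rab7b, a small GTPase of endosomes, at 184 FPKM in PcDC1 against 4.11 and 2.5 in PcDC2. Clnk, an adaptor related to SLP-76, was at 13 in PcDC1 and listed at 0 in both PcDC2 libraries. Batf3, the partner factor of IRF8, was at 256 FPKM in PcDC1 against 33.6 and 37.1 in PcDC2. Its log2 difference of 2.82 became 0.63 after length was removed, and Batf3 was then not called; its transcript is 801 bases long. Wdfy4, which cross-presentation needs, was at 107 FPKM in PcDC1 against 54.4 and 17.7 in PcDC2 and was not called, with PcDC2 replicate 1 more than 3 times replicate 2. Nfil3, at 62.4 FPKM in PcDC1 against 49.5 and 68 in PcDC2, and Rab43, at 78.5 FPKM in PcDC1 against 119 and 95.6 in PcDC2, were also not called. Cbfa2t3, a corepressor, was at 20.1 FPKM in PcDC1 against 141 and 55.5 in PcDC2, and so lay below both PcDC2 libraries without a call.

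The type 2 list showed the opposite split. Of its 26 genes 18 were at the level cut, 12 were lower, 1 higher and 5 neither, with a median log2 difference of -4.40, and after length was removed 11 were lower and 1 higher. Members such as Sirpa, Itgam and Zeb2 passed the cut through PcDC2 alone and could not have been called higher. The cut sets part of this split as well. Itgam, which encodes CD11b, was at 4.14 FPKM in PcDC1 against 132 and 147 in PcDC2. Zeb2, a repressor required by type 2 and plasmacytoid cells, was at 0.0609 FPKM in PcDC1 against 17.1 and 22.5 in PcDC2. Irf4 was at 1.31 FPKM in PcDC1 against 16.2 and 17.3 in PcDC2, and its call was lost after length was removed. These 3 genes were each at 4.14 FPKM or less in PcDC1. Tmem176a and Tmem176b, neighbouring genes for membrane proteins linked to MHC class II traffic, were at 18.5 FPKM against 417 and 478 and 22.2 FPKM against 526 and 531 (PcDC1 first). Cd7 was at 4.38 FPKM in PcDC1 against 152 and 115 in PcDC2. Clec12a, listed among type 2 genes but also a receptor for uric acid crystals carried by type 1 cells, was the 1 higher gene, at 260.0 FPKM in PcDC1 against 45.2 and 43.4 in PcDC2, a call lost after quantile normalization. Klf4, at 61.5 FPKM in PcDC1 against 92.2 and 27.3 in PcDC2, lay inside the PcDC2 range, and Notch2 was at 5.57 FPKM in PcDC1 against 26.1 and 14.6 in PcDC2 and was not called.

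**Figure D2:**
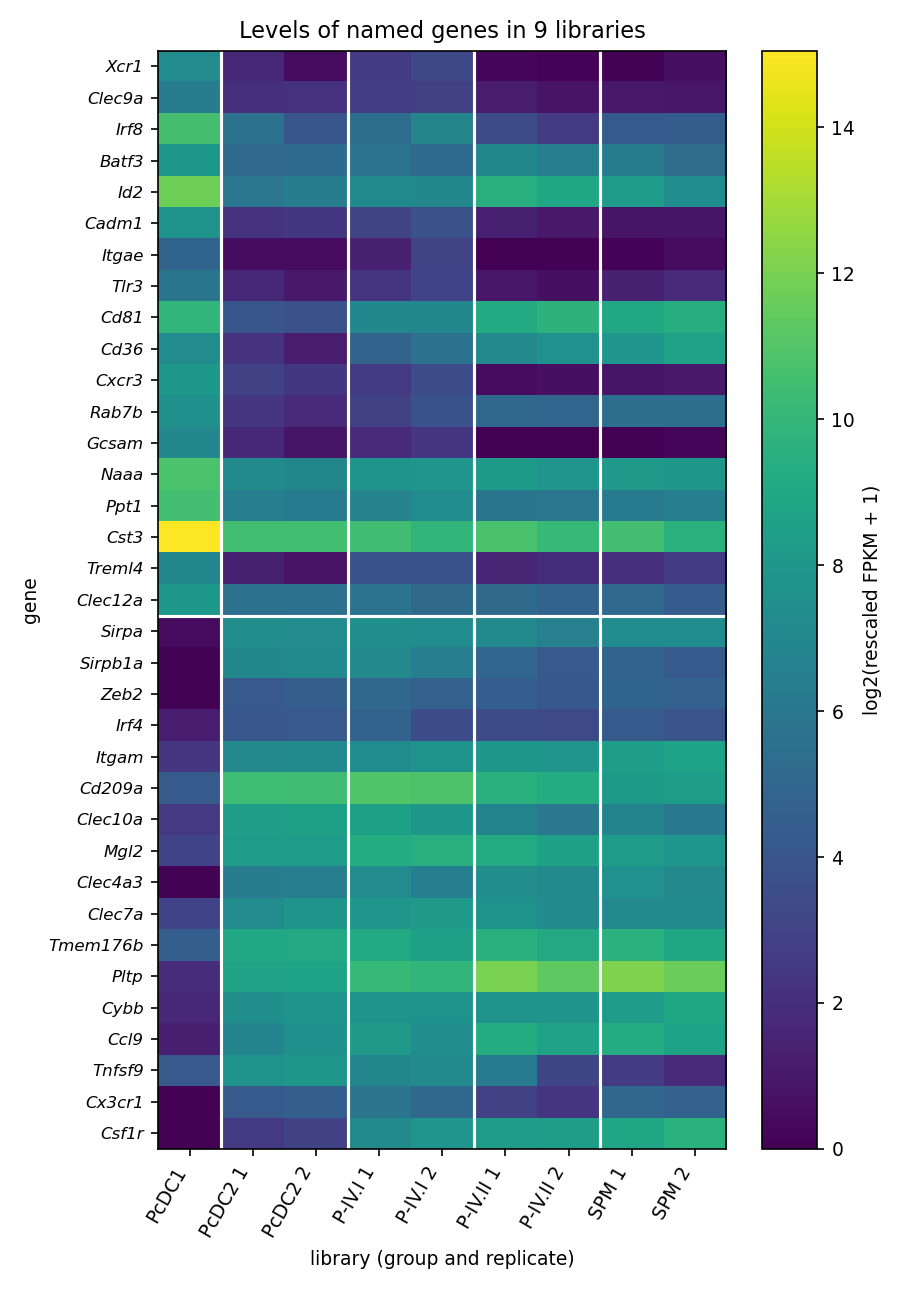
Colour gives log2(rescaled FPKM + 1) of 35 genes (rows) in the 9 libraries (columns, group and replicate), with white lines between groups and between genes on the type 1 and type 2 sides. Xcr1 and Gcsam were high in the PcDC1 column alone, while Cd81 and Cd36 were also high in P-IV.II and SPM, and Sirpa was low in PcDC1 and at 92.2 FPKM or more in all 8 other libraries.

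Genes shared by both lineages were mostly not called, as were 4802 of all 5914 genes. Of the 20 genes of the conventional dendritic cell core, 2 were higher, 1 lower and 17 neither, near the 11.6% higher and 7.24% lower of all genes. The median was -0.84 (-0.07 after length was removed). Flt3, the growth factor receptor of the lineage, was at 116 FPKM in PcDC1 against 165 and 131 in PcDC2. Zbtb46, the lineage's repressor, was at 30.6 FPKM in PcDC1 against 97.7 and 98.7 in PcDC2, and Itgax, which encodes CD11c, was at 30.7 FPKM in PcDC1 against 86.6 and 72.4 in PcDC2. Spi1, which encodes the myeloid factor PU.1, was at 466 FPKM in PcDC1 against 486 and 477 in PcDC2, level with both. Cst3, which encodes the protease inhibitor cystatin C, was the exception, at 33889 FPKM in PcDC1 against 1427 and 1469.5 in PcDC2. It made up 4.61% of the FPKM total of PcDC1 and 0.164% to 0.337% of the other 8. Relb, an NF-kappaB subunit, was the lower gene, at 15.8 FPKM in PcDC1 against 77.5 and 99.5 in PcDC2. Hmgn3, at 94.1 FPKM in PcDC1 against 9.02 and 12.9 in PcDC2, was higher by the first rule and not after length was removed.

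Among 36 dendritic cell transcription factors at the level cut, 3 were higher and 6 lower, beside 11.6% and 7.24% of all genes. After length was removed 4 were higher and 3 lower. Id1, an inhibitor of E proteins related to Id2, was at 92.1 FPKM in PcDC1 against 2.93 and 4.29 in PcDC2. Mycl, a MYC family factor of dendritic cells, was at 56.3 FPKM in PcDC1 against 16.8 and 14.5 in PcDC2, and was called after length was removed and not before. Stat3, at 14.7 FPKM in PcDC1 against 87.2 and 82.1 in PcDC2, and Stat5a, at 6.2 FPKM in PcDC1 against 34.6 and 40.2 in PcDC2, were lower by the first rule alone. Spib, an ETS factor known from plasmacytoid and B cells, was at 0.0433 FPKM in PcDC1 against 28.1 and 20.3 in PcDC2. Its PcDC2 values were thus well above the level cut while PcDC1 was near 0. Irf5, at 332 FPKM in PcDC1 against 317 and 307 in PcDC2, and Irf7, at 38.7 FPKM in PcDC1 against 27.2 and 19.3 in PcDC2, were not called.

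Receptors for sugars on microbes and dead cells were mostly lower. Of 14 C-type lectin receptors at the level cut 9 were lower, 2 higher and 3 neither, with a median of -3.27, and 11 lower and 2 higher after length was removed. Cd209a, a relative of human DC-SIGN, was at 18.4 FPKM in PcDC1 against 1340.3 and 1399 in PcDC2, the highest of these in PcDC2. Clec10a and Mgl2, the mouse receptors for galactose and N-acetylgalactosamine, were at 4.56 FPKM against 343 and 372 and 7.18 FPKM against 313 and 316, PcDC1 first. Clec7a, the beta-glucan receptor Dectin-1, was at 6.99 FPKM in PcDC1 against 151 and 220.5 in PcDC2. Clec4a3 was at 0.0463 FPKM in PcDC1 against 82.5 and 85.9 in PcDC2 and Clec4a1 at 3.31 FPKM in PcDC1 against 72.6 and 36.3 in PcDC2. Mrc1, the mannose receptor, was listed at 0 in PcDC1 and was at 15.4 and 16.3 in PcDC2. The 2 higher members were Clec9a and Clec12a. Reads shared among close copies (Clec4a1 and Clec4a3, or the Cd209 genes) could be split differently by the authors' counting, so each member's value is uncertain.

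Paired and inhibitory receptors, many of which signal through ITIM motifs or the adaptor DAP12, had 10 lower, 1 higher and 6 neither of 17, with a median of -2.67, and again 10 lower and 1 higher after length was removed. Sirpb1a was at 0.0591 FPKM in PcDC1 against 127 and 139 in PcDC2 and Sirpb1b at 0.179 FPKM in PcDC1 against 20.3 and 20.5 in PcDC2, a pair of near-identical copies. Cd300ld was at 1.18 FPKM in PcDC1 against 77.9 and 85 in PcDC2, and Cd300e was listed at 0 in PcDC1 against 14.6 and 10.9. Lilrb4a was at 2.97 FPKM in PcDC1 against 23.8 and 36 in PcDC2 and Pirb, an inhibitory receptor for MHC class I, at 32.4 FPKM in PcDC1 against 205 and 219 in PcDC2. Pirb was called by the first rule alone, and Cd200r1, at 9.54 FPKM in PcDC1 against 34 and 38.1 in PcDC2, only after length was removed. Cd22, a sialic acid receptor best known on B cells, was at 0.0483 FPKM in PcDC1 against 15.4 and 14.4 in PcDC2. The higher member was Treml4, a receptor of the TREM family that binds dead cells, at 121 FPKM in PcDC1 against 1.48 and 0.755 in PcDC2. Tyrobp, the DAP12 adaptor itself, was at 685 FPKM in PcDC1 against 292 and 331 in PcDC2 and was not called.

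Of 11 Toll-like receptors and partners, 2 were higher and 3 lower, beside 11.6% and 7.24% of all genes, with a median of -0.56. Tlr3, the receptor for double-stranded RNA, was at 56.7 FPKM in PcDC1 against 2.19 and 1.03 in PcDC2. Tlr11, which recognises profilin of parasites, was at 25.9 FPKM in PcDC1 against 9.45 and 11 in PcDC2, within 4-fold, and was called after length was removed. Tlr1 and Tlr2, partners in sensing lipopeptides, were at 0.33 FPKM against 20.9 and 16.5 and 5.1 FPKM against 74.1 and 92, PcDC1 first. Ticam2, an adaptor of TLR4, was at 0.212 FPKM in PcDC1 against 21 and 29.7 in PcDC2. Ly96, the MD-2 partner of TLR4, was at 16.2 FPKM in PcDC1 against 1.9 and 2.78 in PcDC2, and its log2 difference of 2.37 became -0.16 after length was removed. Unc93b1, the chaperone of endosomal receptors, was at 338 FPKM in PcDC1 against 683 and 581 in PcDC2, and Myd88, the shared adaptor, at 90.9 FPKM in PcDC1 against 184 and 161 in PcDC2; neither was called. Of the 6 cytosolic sensors at the level cut, Nlrp3, at 2.38 FPKM in PcDC1 against 19.3 and 18.5 in PcDC2, was lower by the first rule and none after length was removed.

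MHC class II genes were high on both sides. Of the 14 genes of the pathway, 0 were higher and 1 lower, with a median of 0.06. After length was removed 2 were lower and the median was -0.91. The median transcript length of the list was 1424 bases. All genes of 1000 to 1500 bases had a median log2 difference of 1.44. H2-Ab1 was at 28739.8 FPKM in PcDC1 against 18704 and 16284 in PcDC2, H2-Aa at 12780.0 FPKM in PcDC1 against 8973 and 10344 in PcDC2 and the invariant chain Cd74 at 65241 FPKM in PcDC1 against 54186 and 44060.1 in PcDC2. Before length was removed all 3 were somewhat higher in PcDC1 than in each PcDC2 library, and none reached 4-fold. As a share of each library's FPKM total the order was the other way: Cd74, H2-Aa, H2-Ab1 and H2-Eb1 together made up 15.6% in PcDC1 and 20% and 17.9% in PcDC2. H2-DMb2, a subunit of the peptide exchanger H2-DM, was at 503 FPKM in PcDC1 against 1203 and 1077 in PcDC2, and was called lower after length was removed. Ciita, the activator of class II transcription, was at 34.7 FPKM in PcDC1 against 135 and 150.2 in PcDC2, just short of 4-fold below the nearer library. The gene called lower by both rules was Lgmn, an endosomal protease, at 5.76 FPKM in PcDC1 against 58.7 and 33.8 in PcDC2.

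For class I presentation 3 of 21 genes were higher, 1 lower and 17 neither, with a median of 0.58. These counts are near the 11.6% higher and 7.24% lower of all genes. Psmb9, an immunoproteasome subunit, was at 1238 FPKM in PcDC1 against 117 and 114 in PcDC2 and was called by both rules. Psme1 and Psme2, the subunits of the PA28 proteasome activator, were at 904 FPKM against 169 and 172 and 897 FPKM against 102 and 117, PcDC1 first, and both calls were lost after length was removed. H2-K1, at 977 FPKM in PcDC1 against 1161 and 1239 in PcDC2, Tap1, at 125 FPKM in PcDC1 against 149 and 153 in PcDC2, and Tapbp, at 211 FPKM in PcDC1 against 389.7 and 398 in PcDC2, were not called. Cybb, the catalytic subunit of the phagocyte NADPH oxidase, was at 2.23 FPKM in PcDC1 against 179 and 222 in PcDC2. PcDC1 was thus low for this gene, with a log2 difference of -5.96.

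Of 19 lysosomal proteases and related genes 3 were higher and 3 lower by the first rule, beside 11.6% and 7.24% of all genes. The higher genes were the protease inhibitors Cst3, Cstb and Serpinb6b, and the lower ones the proteases Ctsa, Ctsd and Lgmn. After length was removed 3 were higher and 3 lower, with Fuca1, a lysosomal enzyme, called higher in place of Cstb. Fuca1 was at 286 FPKM in PcDC1 against 76.5 and 80 in PcDC2. Ctsa was at 34.1 FPKM in PcDC1 against 299.8 and 272 in PcDC2, and Ctsd at 9.12 FPKM in PcDC1 against 45.1 and 52.4 in PcDC2. Serpinb6b was at 35.7 FPKM in PcDC1 against 1.27 and 2.63 in PcDC2. Cstb, which encodes cystatin B, was at 159.9 FPKM in PcDC1 against 13 and 16.8 in PcDC2, and was called by the first rule alone. Ctss, the protease that trims the invariant chain, was at 1176 FPKM in PcDC1 against 1131 and 1234 in PcDC2 and was not called.

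Of 17 lipid genes 3 were higher and 4 lower, beside 11.6% and 7.24% of all genes. After length was removed 4 were higher and 2 lower, beside 5.22% and 4.87% of all genes. Cd36, a scavenger receptor for lipids and dead cells, was at 155 FPKM in PcDC1 against 3.57 and 1.3 in PcDC2. Ppt1, a lysosomal enzyme that removes palmitate from proteins, was at 1505 FPKM in PcDC1 against 89.8 and 73.8 in PcDC2, and Naaa, which cleaves N-acylethanolamines, at 1799 FPKM in PcDC1 against 139 and 119 in PcDC2. These are 63.4, 18.4 and 13.9 times the PcDC2 means. Alox5, the first enzyme of leukotriene synthesis, was listed at 0 in PcDC1 and was at 29.5 and 36.5 in PcDC2. Its partner Alox5ap lay within 4-fold of the nearer PcDC2 library on the log2(FPKM + 1) scale. Ptgs2, the inducible cyclooxygenase, was at 3.08 FPKM in PcDC1 against 60.7 and 129 in PcDC2, and was lower by the first rule alone. The P-IV.II pair, which shares a label, held Ptgs2 at 47.8 and 2.99 FPKM. 

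Chemokine receptors differed gene by gene. Of 9 at the level cut 2 were higher, Xcr1 and Cxcr3, and 3 lower, beside 11.6% and 7.24% of all genes. Cxcr3, the receptor for interferon-induced CXCL9 and CXCL10, was at 255 FPKM in PcDC1 against 6.65 and 4.38 in PcDC2. Cx3cr1, the fractalkine receptor, and Ccr1 were listed at 0 in PcDC1, against 18.4 and 22.6, and 9.02 and 12.9, in PcDC2. The Ccr1 call was not met without PcDC2 replicate 2, when the gene no longer reached 10 FPKM. Ccrl2, which binds chemerin, was at 12.2 FPKM in PcDC1 against 146 and 151 in PcDC2. Libraries that share a label also differed widely for Ccrl2, at 650 and 90.1 FPKM in P-IV.II and 55.6 and 8.64 FPKM in SPM. Ccr7, the receptor for migration to lymph nodes, was at 35.9 FPKM in PcDC1 against 114 and 388 in PcDC2, within 4-fold of the nearer PcDC2 library, so it was not called. Ccr2 was at 295 FPKM in PcDC1 against 195 and 218 in PcDC2 and was not called.

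Of 11 chemokines 0 were higher and 1 lower, Ccl9, at 1.45 FPKM in PcDC1 against 108 and 187 in PcDC2; after length was removed Ccl3, at 11.9 FPKM in PcDC1 against 20.4 and 36.5 in PcDC2, and Ccl4, at 16.8 FPKM in PcDC1 against 36.7 and 54.2 in PcDC2, were lower as well. Of 11 cytokines 1 was higher and 2 lower, and 0 and 4 after length was removed. For both lists the shares of all genes were 11.6% higher and 7.24% lower by the first rule. They were 5.22% and 4.87% after length was removed. Tnfsf9, the 4-1BB ligand, was at 17.47 FPKM in PcDC1 against 215 and 253 in PcDC2. Osm, which encodes oncostatin M, was listed at 0 in PcDC1 against 8.7 and 12.6. Both differed widely between libraries that share a label: the P-IV.II pair held Tnfsf9 at 71.9 and 7.89 FPKM and Osm at 64.7 and 6.95 FPKM. Tnfsf9 was lower still in SPM, at 5.44 and 2.48 FPKM. The Osm call was also not met without PcDC2 replicate 2. Il15, a growth factor for NK and memory CD8 T cells, was at 15 FPKM in PcDC1 against 0.914 and 0.664 in PcDC2 and was higher by the first rule alone. Il12b, the p40 chain of IL-12, was at 14.9 FPKM in PcDC1 against 2.99 and 4.16 in PcDC2, above both PcDC2 libraries and not called. Il1b was at 107 FPKM in PcDC1 against 642 and 1213 in PcDC2, and the spread of PcDC2 kept it from a call by the first rule.

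Growth factor and cytokine receptors had 0 higher and 5 lower of 21, with a median of -1.41, and 0 and 3 after length was removed. The shares of all genes were 11.6% higher and 7.24% lower by the first rule. Il17ra was at 2.1 FPKM in PcDC1 against 59.7 and 62.7 in PcDC2, Il21r at 4.81 FPKM in PcDC1 against 78 and 78.9 in PcDC2 and Il2rg, the common gamma chain, at 80.4 FPKM in PcDC1 against 475 and 440.3 in PcDC2. These 3 were lower by both rules. Il10ra, at 21.7 FPKM in PcDC1 against 122 and 179 in PcDC2, and Il4ra, at 8.29 FPKM in PcDC1 against 40.1 and 61 in PcDC2, were lower by the first rule alone. Csf2ra, a chain of the GM-CSF receptor, was at 126 FPKM in PcDC1 against 334 and 305 in PcDC2 and was not called.

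Of 18 costimulatory and checkpoint genes 1 was higher and 3 lower, by the first rule and after length was removed, beside 11.6% and 7.24% of all genes by the first rule. Cd86, a ligand of CD28, was the higher one, at 89.4 FPKM in PcDC1 against 12.4 and 19.7 in PcDC2. The call was lost on the deposited scale and after quantile normalization. Cd80, the related ligand, was at 3.54 FPKM in PcDC1 against 11 and 18.9 in PcDC2, and Cd40, the receptor for T cell help, at 17.8 FPKM in PcDC1 against 33.4 and 46 in PcDC2; neither was called. Icosl was lower at 8.95 FPKM in PcDC1 against 101.02 and 79.9 in PcDC2, Slamf9 at 16.4 FPKM in PcDC1 against 179 and 184 in PcDC2, and Tnfsf9 as above. Cd274, which encodes PD-L1, was at 0.456 FPKM in PcDC1 against 8.15 and 21.3 in PcDC2, with a PcDC2 spread too wide for a call.

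The mature and migratory list had 2 higher, Cd86 and Serpinb6b, and 3 lower of 23, beside 11.6% and 7.24% of all genes. Its median was -0.88. Nfkb2, a subunit of the alternative NF-kappaB pathway, was at 10.5 FPKM in PcDC1 against 85.5 and 91.7 in PcDC2, and Il4i1, an amino acid oxidase, at 5.23 FPKM in PcDC1 against 40.1 and 45.1 in PcDC2; with Relb these were the lower genes. Fscn1, an actin bundler of mature cells, was at 12.1 FPKM in PcDC1 against 41.5 and 23.6 in PcDC2 and was not called. Immediate early and stress genes, which many signals induce within minutes, had 0 higher and 4 lower of 26, with a median of -0.71. Gadd45b was at 14.6 FPKM in PcDC1 against 201 and 419.9 in PcDC2, Nfkbiz at 29.3 FPKM in PcDC1 against 342 and 462 in PcDC2 and Ier3 at 5.53 FPKM in PcDC1 against 60.3 and 95.4 in PcDC2. These 3 were lower by both rules, and Egr2, at 14.2 FPKM in PcDC1 against 124 and 86.4 in PcDC2, by the first alone. Gadd45b, Nfkbiz and Ier3 also differed widely between libraries that share a label. The P-IV.II pair held Gadd45b at levels of 330.3 and 11.1 FPKM and Nfkbiz at 212 and 19.3 FPKM, and the SPM pair held Ier3 at 51.5 and 1.25 FPKM. PcDC1 was not below all 8 other libraries for any of these 3. Fos was at 1398 FPKM in PcDC1 against 1117 and 941 in PcDC2, within 4-fold of both.

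Interferon-stimulated genes had 2 higher, 3 lower and 15 neither of 20, beside 11.6% higher and 7.24% lower of all genes. Ifi205, a nucleic acid sensor of the interferon-inducible cluster on chromosome 1, was at 729 FPKM in PcDC1 against 30.5 and 14.9 in PcDC2; its reads may be shared with its neighbours, such as Mnda, at 368 FPKM in PcDC1 against 15.1 and 9.76 in PcDC2. Trim30a was at 81.6 FPKM in PcDC1 against 19 and 15.8 in PcDC2, and its call was lost on the deposited scale and after quantile normalization. Gbp2 and Ifit3 were listed at 0 in PcDC1, against 14.4 and 20.9, and 14.5 and 8.22; Ifit3 was not called without PcDC2 replicate 1. Oas1a was lower at 5.7 FPKM in PcDC1 against 32.3 and 31.3 in PcDC2. Irf7, Isg15 and 13 more genes of this list were not called by the first rule.

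Of 16 integrins and adhesion genes 2 were higher, Itgae and Cadm1, and 2 lower by the first rule, Itgam among them. All genes gave 11.6% higher and 7.24% lower by that rule. Itgb7, the chain that pairs with CD103, was at 214 FPKM in PcDC1 against 627 and 705 in PcDC2 and was not called. Of 12 tetraspanins 3 were higher by the first rule and only Cd81 after length was removed. Cd9 was at 661 FPKM in PcDC1 against 144 and 161 in PcDC2 and Cd37 at 210.3 FPKM in PcDC1 against 41.7 and 47.7 in PcDC2, and both calls were also lost on the deposited scale and after quantile normalization. Tspan32 was lower, at 2.01 FPKM in PcDC1 against 11.3 and 15.1 in PcDC2. Among 11 Fc and dead-cell receptors Cd36 was higher, and Fcgr3, an activating Fc receptor, was lower at 0.0881 FPKM in PcDC1 against 16.6 and 15.2 in PcDC2, as was Mfge8, a bridge to dying cells, at 1.72 FPKM in PcDC1 against 19.6 and 13.4 in PcDC2. Fcer1g, the chain that pairs with Fcgr3, was at 427 FPKM in PcDC1 against 377 and 456 in PcDC2 and was called lower only after length was removed.

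Cell cycle genes were higher or not called. Of the 30 listed genes 16 were at the level cut. By the first rule 6 were higher and 0 lower, beside 11.6% and 7.24% of all genes. After length was removed 4 were higher and 0 lower. The medians were 1.8 and 1.16. Birc5, a chromosomal passenger protein, was at 47.8 FPKM in PcDC1 against 3.37 and 5.08 in PcDC2, Cdk1, the mitotic kinase, at 12.4 FPKM in PcDC1 against 1.03 and 0.661 in PcDC2, and Tyms, a thymidylate enzyme, at 11.1 FPKM in PcDC1 against 1.26 and 0.941 in PcDC2. These 3 were at 5.08 FPKM or less in both PcDC2 libraries. They passed the level cut through PcDC1 alone and could not have been called lower, so the cut sets part of this split. Hmgb2 was at 234 FPKM in PcDC1 against 36.9 and 41.6 in PcDC2, and its call was lost after quantile normalization. Stmn1, at 272 FPKM in PcDC1 against 30.5 and 24.8 in PcDC2, was called by the first rule alone. Mcm6, a subunit of the replication helicase, was at 24 FPKM in PcDC1 against 51.4 and 41.3 in PcDC2, and Mki67, below the level cut, was at 5.2 FPKM in PcDC1 against 1.36 and 1.6 in PcDC2. Of the 5 Notch and retinoid genes at the level cut, none was called; Rarg was at 1.56 FPKM in PcDC1 against 20.9 and 6.95 in PcDC2.

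**Figure D3:**
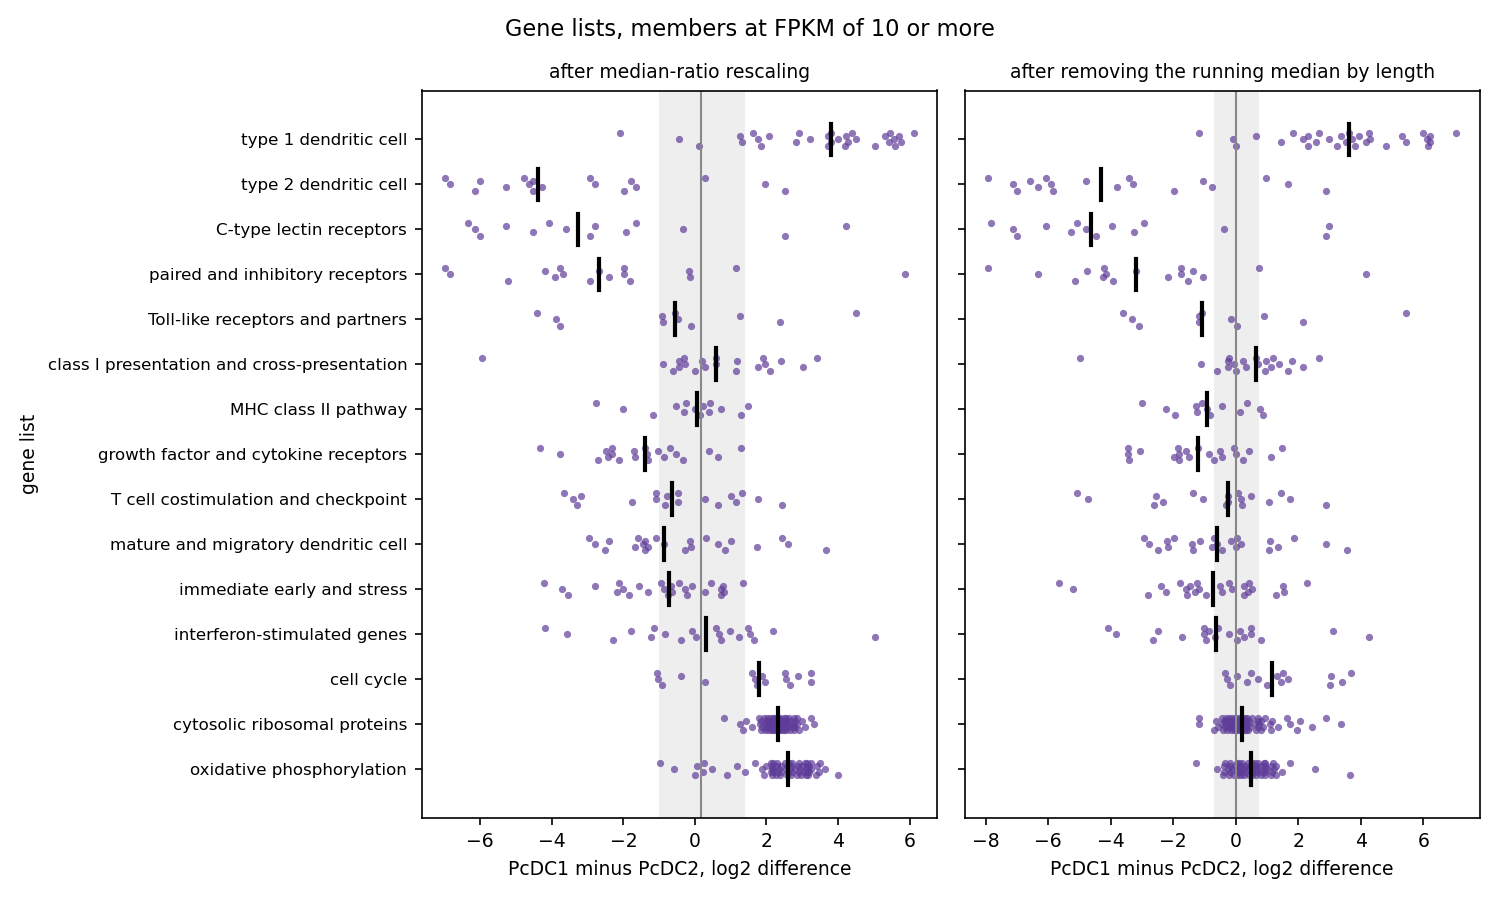
Each dot is 1 gene at the level cut, with its log2 difference (PcDC1 minus the mean of the 2 PcDC2 libraries) on the x axis and its list on the y axis, after rescaling (left) and after removing the running median by length (right). Black bars are list medians, the grey band holds the middle 50% of all genes and the grey line is their median; the type 1 list lay at 3.80 and 3.64, while the ribosomal list moved from 2.33 to 0.19.

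Some genes at the ends of the comparison belonged to none of these lists. Aif1, which encodes the calcium-binding protein IBA1 of myeloid cells, was at 517 FPKM in PcDC1 against 7.79 and 7.67 in PcDC2. Cyp8b1, a bile acid enzyme of the liver, was at 47.8 FPKM in PcDC1 against 0.0161 and 0.0381 in PcDC2. Plpp1, a lipid phosphatase, was at 87.2 FPKM in PcDC1 against 0.785 and 0.494 in PcDC2 and Prelid2, a relative of mitochondrial lipid carriers, at 105 FPKM in PcDC1 against 1.58 and 1.63 in PcDC2. Cxx1c was at 664 FPKM in PcDC1 against 15.5 and 11.4 in PcDC2, Xlr at 127 FPKM in PcDC1 against 1.62 and 2.22 in PcDC2 and the histone gene Hist2h2aa2 at 48.8 FPKM in PcDC1 against 0.152 and 0.0934 in PcDC2. The last 3 belong to families of near-identical copies, so the split of their reads is uncertain. Across these 7 genes PcDC1 ran from 47.8 to 664 FPKM and the highest PcDC2 value was 15.5. They were picked by their distance before length was removed, and all but Cxx1c passed the level cut through PcDC1 alone. Their log2 differences ran from 5.35 for Prelid2 to 5.89 for Aif1. After length was removed they ran from 2.94 for Hist2h2aa2 to 5.31 for Cyp8b1.

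Among the lowest genes were Sulf2, a sulfatase that edits heparan sulfate, at 0.661 FPKM in PcDC1 against 159.7 and 123 in PcDC2, and Dab2, an endocytic adaptor, at 1.07 FPKM in PcDC1 against 144 and 134 in PcDC2. St8sia6, a sialyltransferase, was at 0.21 FPKM in PcDC1 against 79.6 and 78.8 in PcDC2, and Adgre4, an adhesion receptor of the F4/80 family, at 0.247 FPKM in PcDC1 against 77.5 and 92.9 in PcDC2. PcDC1 was at 1.07 FPKM or less for these 4 genes. Elmo2, which helps Rac act in engulfment, was at 2.32 FPKM in PcDC1 against 169.7 and 189 in PcDC2, Mcemp1 at 0.864 FPKM in PcDC1 against 86.6 and 119.5 in PcDC2 and Ddi2, an aspartic protease, at 0.0283 FPKM in PcDC1 against 41 and 49.3 in PcDC2. In all 7 genes the PcDC2 libraries lay close to each other and far above PcDC1.

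Beyond PcDC2, the 6 other libraries give the levels of these genes in the other groups. Of the 183 genes higher by both rules 102 were also at least 4-fold above all 8 other libraries. Of the 232 lower genes 126 were at least 4-fold below all 8. These genes had been picked for their distance from PcDC2, which is part of the 8, and length was not removed for this count. The share among all genes was not counted, so these counts do not show how particular the pattern is to the called genes. Xcr1 was at 5.24 and 8.61 FPKM in P-IV.I, and at 0.557 or less in P-IV.II and SPM. Cd81 was at 514 to 848 in P-IV.II and SPM, close to the 956 of PcDC1, so PcDC2 was the low side for this gene. Cd36 was likewise at 135 to 411 in P-IV.II and SPM. Pltp was at 973 and 1071 in P-IV.I and at 2576 to 4451 in P-IV.II and SPM. It was therefore lower in PcDC2 than in every other group except PcDC1. Sirpa was at 92.2 to 180 in the 6 other libraries, Zeb2 at 16.5 to 31.2 and Itgam at 156 to 424. PcDC1 was the sole library with low levels of these 3 genes.

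Markers of other cells were checked in the same libraries. Csf1r, the receptor that the gate excluded, was listed at 0 in PcDC1 and was at 4.83 and 6.39 in PcDC2, against 143 to 778 in the CD115+ groups. The 29 macrophage and monocyte markers summed to 4059 in PcDC1 and to 1047 and 1312 in PcDC2, against 50803 to 81582 in SPM. Of the 14 at the level cut 2 were higher and 4 lower, beside 11.6% and 7.24% of all genes, and 0 and 4 after length was removed. Lyz2, a lysozyme gene, was at 3069 FPKM in PcDC1 against 341 and 527 in PcDC2 and made up most of the sum, and Lyz1 was at 56.8 FPKM in PcDC1 against 5.63 and 4.22 in PcDC2; both were called by the first rule alone. C1qb was at 1.63 FPKM in PcDC1 against 0.386 and 5.9 in PcDC2, and Mertk was listed at 0 in all 3. Cd163 was lower, at 0.658 FPKM in PcDC1 against 21.6 and 32.9 in PcDC2. The part of these cells in the other results was not tested.

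Of the 11 B cell markers in the table, the sum was 144 in PcDC1 and 51.6 and 30.4 in PcDC2. Fcrla, an intracellular Fc receptor relative, was at 109 FPKM in PcDC1 against 2.72 and 2.07 in PcDC2 and made up most of it, while Pax5 was listed at 0 in PcDC1 and was at 0.0648 and 0 FPKM in PcDC2. The 13 plasmacytoid cell markers summed to 199, 142 and 127, with 0 higher and 2 lower (Spib and Cd209d) and Siglech at 0.194 FPKM in PcDC1 against 1.93 and 1.54 in PcDC2. The 18 T and NK cell markers in the table summed to 34.0, 44.4 and 50.2, and none was at the level cut. Granulocyte and mast cell markers summed to 12.2 in PcDC1, of which the mast cell protease Tpsb2 gave 8.26, and to 1.2 and 0.99 in PcDC2. S100a8 and S100a9 were listed at 0 in all 3 libraries. The 15 mesothelial and stromal markers summed to 0.33 in PcDC1 and to 12.3 and 7.19 in PcDC2, and Msln was listed at 0 in all 3. The 9 erythroid and platelet markers summed to 31, 5.27 and 3.74. Hba-a1, a haemoglobin chain with a near-identical copy, was at 27.2 in PcDC1 and listed at 0 in both PcDC2 libraries. The part of such cells in the results was not tested.

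An entry of 0 in a table without read counts may be a failed estimate. There were 30 genes lower in PcDC1 that were listed at 0 there, and 13 genes at 10 FPKM or more in all 8 other libraries were listed at 0 in PcDC1. The 13 include Srsf4, a splicing factor that most cells use, beside Alox5, Mrc1 and Gbp2. For such genes no fold is given.

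Gene groups of short transcripts show the size of the length relation. The cytosolic ribosomal proteins, 77 at the level cut, had a median log2 difference of 2.33 with 40 higher and 0 lower, and 0.19 with 3 higher after length was removed. They made up 4.55% of the rescaled FPKM in PcDC1 and 1.42% and 1.94% in PcDC2. The 68 oxidative phosphorylation genes had a median of 2.59 with 52 higher, and 0.48 with 2 higher after length was removed. Both lists were added after the data were seen. The type 1 list moved from 3.80 to 3.64, and the median of the C-type lectins went from -3.27 to -4.62.

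**Figure D4:**
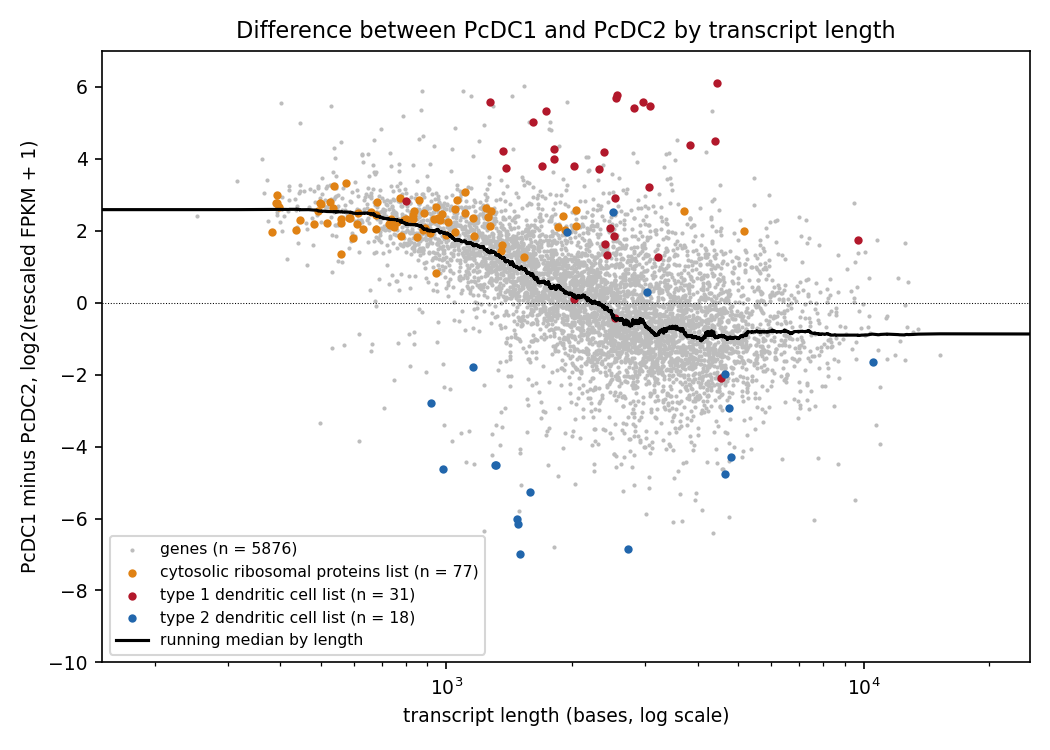
Each point is 1 of 5876 genes, with transcript length in bases on a log x axis and the log2 difference (PcDC1 minus the mean of the 2 PcDC2 libraries) on the y axis; the black line is the running median by length. The line falls from 2.60 at short transcripts to about -0.9 beyond 4000 bases, and most ribosomal protein genes lie along it, while most type 1 genes lie above it and most type 2 genes below.

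Promoters were read from RefSeq (GRCm38.p6, 250 bases before to 50 after the start) for the letters that IRF and AP-1 factors are known to bind, since the lineage factors IRF8, IRF4 and BATF3 are of these families. The motifs were GGAA and GAAA 2 bases apart (IRF with an ETS partner), GAAA repeated 2 bases apart (IRF) and TGANTCA (AP-1), each sought on both strands and allowed to overlap. Of 5914 genes 4830 had a promoter in the table. Among 146 genes higher by both rules, 2.74%, 7.53% and 10.96% held them, in that order. Among 187 lower genes the shares were 4.81%, 8.02% and 11.8%. All 4830 genes gave 3.04%, 4.33% and 6.02%, and all 27025 promoters 3.16%, 3.99% and 8.97%. The shares for higher and lower genes were thus close to each other for the repeated GAAA and the TGANTCA letters. Xcr1, Clec9a, Irf8, Cd81 and Pltp promoters held no match.

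The 250 bases upstream of 2 higher and 2 lower genes with a match are printed here 5′ to 3′ on the gene's strand with matches in capitals, as examples of where the letters lie. Ifi205 (chr1:174031756-174032005, minus strand) and Aif1 (chr17:35176053-35176302, minus strand) were higher, and Cybb (chrX:9469325-9469574, minus strand) and Sirpb1a (chr3:15426428-15426677, minus strand) lower. A match is a string of letters and was not tested as a binding site.
Ifi205: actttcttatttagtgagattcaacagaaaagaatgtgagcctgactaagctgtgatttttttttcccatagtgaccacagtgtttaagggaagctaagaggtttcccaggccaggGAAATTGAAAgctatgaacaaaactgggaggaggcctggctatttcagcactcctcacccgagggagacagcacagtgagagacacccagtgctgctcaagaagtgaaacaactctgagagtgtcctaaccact
Aif1: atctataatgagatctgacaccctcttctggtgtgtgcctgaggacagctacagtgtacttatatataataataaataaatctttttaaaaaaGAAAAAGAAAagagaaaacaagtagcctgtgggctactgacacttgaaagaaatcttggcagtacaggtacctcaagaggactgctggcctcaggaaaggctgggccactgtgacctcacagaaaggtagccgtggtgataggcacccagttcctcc
Cybb: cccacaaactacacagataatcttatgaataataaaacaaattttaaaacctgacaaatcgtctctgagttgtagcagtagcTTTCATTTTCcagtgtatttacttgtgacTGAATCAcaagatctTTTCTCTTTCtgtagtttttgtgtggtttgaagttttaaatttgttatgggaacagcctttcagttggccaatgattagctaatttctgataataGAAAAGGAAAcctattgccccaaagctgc
Sirpb1a: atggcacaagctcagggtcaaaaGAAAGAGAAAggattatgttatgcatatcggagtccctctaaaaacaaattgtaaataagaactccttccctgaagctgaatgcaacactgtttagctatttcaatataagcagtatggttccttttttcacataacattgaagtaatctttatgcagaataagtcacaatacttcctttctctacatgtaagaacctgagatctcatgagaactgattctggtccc
In Cybb, 3 matches are to the repeated GAAA, of which 2 lie on the other strand, and 1 is to TGANTCA. The matches in Ifi205 and Aif1 begin 134 and 157 bases before the start, and the one in Sirpb1a 227 bases before it.

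The level and gap cuts place genes with nearly equal values on opposite sides. Ncbp3, at 10.01 FPKM in PcDC1, was just inside the level cut, and Otud1, whose PcDC1 value was just under 10 and whose PcDC2 mean was 8.79, just outside. Supt20, at 6.90 against 30.7 and 33.2, was just past 4-fold, and Cept1, at 6.59 against 30.1 and 29.4, just short of it. A further 32 genes passed 4-fold and missed the condition on the PcDC2 spread, among them Irf8, Cd274, Il1b and Ccl17.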

How the data were processed

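RNA of sorted mouse cells was amplified with a low-input SMARTer kit and sequenced on a NovaSeq, per the labels' protocols. The authors deposited 1 FPKM value per gene and library, made on mm10 with Cufflinks, StringTie 1.3.4d and HISAT2 2.1.0 after base calling with bcl2fastq 1.8.4, per the submitters' processing notes; the step that normalized the deposited FPKM is not given in the sources used here. Read counts are not used here, the lowest values above 0 are not whole steps, and the depth behind each value is unknown.

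From the FPKM, median-ratio factors were computed over 7661 genes at 1 or more in all 9 libraries (0.881 for PcDC1, 1.05 and 1.07 for PcDC2), and differences were taken on log2(rescaled FPKM + 1) with pandas 2.3.3 and numpy 2.4.6. Groups were taken from the sample titles. No test was run, since PcDC1 has 1 library. Transcript lengths came from GENCODE M21 and coordinates from RefSeq, found for 5908 of 5914 genes. The code of the calling rules was tested on simulated data, which cannot show how far PcDC1 libraries vary. The named genes are the given markers, up to 4 higher and 4 lower genes of each list by their distance from the nearer PcDC2 library (2 values where none was called), and the 15 highest and 15 lowest of all. Further genes were named with their values in view. The members, the 32 lists and the rules were chosen with earlier results of these data known. Alternatives were another pseudocount, level, scale, distance and spread condition, each PcDC2 library left out, and length removed.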

Additional observations from a re-analysis of the deposited data

How the results depend on the processing

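Against 684 higher and 428 lower genes, a pseudocount of 5 gave 177 lower genes, a level of 20 FPKM gave 284 lower genes, and quantile normalization gave 420 higher genes, 391 of them among the 684. A distance of at least 1 on the log2 scale gave 1557 higher and 1136 lower genes, and one of at least 3 gave 133 and 164. Removing the running median by length gave 307 higher genes with 150 genes on either side, 183 of them among the 684, and 305 with 50, 179 of them among the 684; both were added after the data were seen. Under these length settings Ly96 turned from higher to -0.16 and -0.29. The cause of each change was not tested. The counts stayed within 1.5 times of the main ones in the other settings. Leaving out 1 PcDC2 library gave 796 to 877 higher and 524 to 535 lower genes; with 1 library left the spread condition cannot be applied. Of 109 named genes with a call, 88 kept it after length was removed with 150 genes on either side, 104 on the deposited scale and 99 after quantile normalization, when Lgmn and Tspan32 were among those lost. The unknown depth limits what a value near 0 in PcDC1 can show. No paired analysis was possible because PcDC1 is 1 library and no test was made.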

Other observations

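Further genes stood at least 4-fold apart from all 8 other libraries in PcDC1, and were chosen after their values were seen. P2ry14, a receptor for UDP-sugars, was at 66.5 FPKM in PcDC1 against 1.42 and 0.825 in PcDC2, and at 0.124 to 1.99 in the 6 libraries of the other groups. Mpeg1, a pore-forming protein of phagocytes, was at 356 FPKM in PcDC1 against 10.4 and 5.82 in PcDC2, and at 5.33 to 28.1 in the other groups. Pomp, the assembly factor of the proteasome, was at 1183 FPKM against 105 and 130.4, beside the higher Psmb9.

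On the lower side, Emilin2, a matrix glycoprotein, was at 0.0553 FPKM in PcDC1 against 38.8 and 56.2 in PcDC2, and at 87.5 to 589.5 in the other groups. Xdh, xanthine dehydrogenase, was at 0.928 FPKM against 47.0 and 45.6. Nfam1, an ITAM-bearing receptor, was at 9.41 FPKM against 239 and 202. These genes were high in every library but PcDC1.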
